A study of Mus musculus with 7 samples.

Results

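The genes described here encode proteins packed into neutrophil granules: myeloperoxidase (Mpo), neutrophil elastase (Elane), proteinase 3 (Prtn3) and cathepsin G (Ctsg) of the primary granules, and 6 genes expressed later in neutrophil maturation, Camp, Ngp, Ltf, Lcn2, S100a8 and S100a9. They are 10 of the 22180 genes that the platform annotation named alone on at least 1 row of the array table. Each had exactly 1 such row (probe set), so every one of their rows was used. The genes were picked with earlier results on these same arrays in view, among them uneven granulocyte marker levels between arrays and genotype differences in Prtn3 and Ctsg. Their array patterns and genotype differences are therefore given as descriptions, without a test.

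The study compared hematopoietic stem cells of Ahr knockout mice (Ahr-KO, 3 arrays) with those of mice carrying wild-type Ahr (WT, 4 arrays), both on the C57BL/6J background. Ahr encodes the aryl hydrocarbon receptor, a ligand-activated transcription factor. All mice were killed at 8 weeks of age, and marrow of both genotypes was depleted of lineage-positive cells before stem cells were isolated by SLAM-family surface markers. The labels give neither the deleted part of Ahr nor the number of mice behind each array. P-values from these arrays thus measure only the spread between them, which may be technical.

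Neutrophil granules are made in succession. At the promyelocyte stage, cells fill primary (azurophilic) granules with myeloperoxidase and serine proteases, and myelocytes and metamyelocytes then fill secondary (specific) granules with antimicrobial and metal-binding proteins. Transcripts of primary granule genes are already present in early myeloid progenitors, whereas secondary granule genes depend on the factor C/EBP epsilon and are switched on later. S100A8 and S100A9, which together form calprotectin, are mainly cytosolic and abundant in maturing neutrophils, and they were kept with the later genes.

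Some members are neighbours in the genome. Prtn3 (chr10:79879667-79883174) and Elane (chr10:79886312-79888216) lie 3.14 kb apart in the GRCm38.p6 annotation, with no protein-coding gene between them. S100a8 (chr3:90669071-90670034) and S100a9 (chr3:90692630-90695721) lie 22.6 kb apart, also without a protein-coding gene between them. Camp (chr9:109847377-109849456), Ngp (chr9:110419808-110423012) and Ltf (chr9:111019292-111042766) share a chromosome, but 8 protein-coding genes separate Camp from Ngp and 20 separate Ngp from Ltf. Mpo lies at chr11:87793784-87804412, Ctsg at chr14:56099885-56102574 and Lcn2 at chr2:32384637-32387739.

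The sequences before the annotated starts of a primary pair, Prtn3 and Elane, and a later pair, Ngp and Ltf, are shown as examples. Each is 250 bases, 5′ to 3′ on the gene's strand, from RefSeq on GRCm38.p6. Capitals mark matches, on either strand, to 3 motifs: GAGGAA, a core bound by PU.1 and related ETS factors, TTGCNNAA, a C/EBP core, and GCGTG, the core of the AhR response element.
Prtn3, chr10:79879417-79879666, + strand: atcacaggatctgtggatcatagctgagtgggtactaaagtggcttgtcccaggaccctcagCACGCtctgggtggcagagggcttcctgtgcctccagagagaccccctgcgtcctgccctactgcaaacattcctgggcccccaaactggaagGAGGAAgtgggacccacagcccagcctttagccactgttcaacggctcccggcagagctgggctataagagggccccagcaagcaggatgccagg
Elane, chr10:79886062-79886311, + strand: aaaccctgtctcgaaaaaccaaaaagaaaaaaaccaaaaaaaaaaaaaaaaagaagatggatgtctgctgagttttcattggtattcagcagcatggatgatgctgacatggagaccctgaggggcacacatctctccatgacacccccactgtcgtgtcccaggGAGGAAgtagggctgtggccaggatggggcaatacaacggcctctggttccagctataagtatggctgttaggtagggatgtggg
Ngp, chr9:110419558-110419807, + strand: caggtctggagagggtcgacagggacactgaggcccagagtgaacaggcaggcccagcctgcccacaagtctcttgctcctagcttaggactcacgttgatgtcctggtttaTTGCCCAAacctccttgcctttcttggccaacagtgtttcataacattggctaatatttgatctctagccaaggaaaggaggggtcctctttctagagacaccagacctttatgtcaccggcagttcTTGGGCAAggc
Ltf, chr9:111019042-111019291, + strand: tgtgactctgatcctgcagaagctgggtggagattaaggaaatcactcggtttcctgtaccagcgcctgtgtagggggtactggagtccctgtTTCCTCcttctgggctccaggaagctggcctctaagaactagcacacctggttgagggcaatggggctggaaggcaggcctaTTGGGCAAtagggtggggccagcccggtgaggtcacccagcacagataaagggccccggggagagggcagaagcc

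All 10 members had an entry in the promoter table, and no matches of different motifs overlapped in these 250-base windows. GAGGAA was found before 4 of 4 primary genes and 3 of 6 later genes, against 23.3% of the 32851 windows in the table. TTGCNNAA stood before 0 of 4 primary and 4 of 6 later genes (Ngp, Ltf, Lcn2 and S100a9), against 9.56% of all windows. GCGTG stood before 2 of 4 primary genes (Prtn3 and Ctsg) and 0 of 6 later genes, against 28.2% of all windows. These are matches of letters only. The motifs were chosen with the members' promoter sequences in view, so nothing is read from the counts.

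Array intensities were deposited on a linear scale, with medians of 16.9 to 20.3 in Ahr-KO against 16.95 to 22.1 in WT. No detection call was at hand. Olfactory receptor genes (1108 probe sets), taken as silent in marrow, set a background mark per array at their 95th percentile, 33.8 to 37.6 in Ahr-KO against 33.9 to 42.8 in WT. Ahr itself had intensities of 34.1, 137 and 26.4 in Ahr-KO cells, against 31.3, 57.9, 14.9 and 20.5 in WT cells, above the mark on 1 array of each genotype. The part of Ahr that its probe set covers is not known here, so Ahr does not check the genotype labels. Of 10 measured HSC markers, 4 exceeded the mark on all 7 arrays, namely Kit, Hlf, Meis1 and Gata2. Slamf1, the SLAM-family marker CD150, named outside the naming rule, exceeded it on 4 arrays, all those of Ahr-KO and WT replicate 4. Its intensities were 57.4, 78.0 and 236 in Ahr-KO cells, against 4.56, 23.3, 7.81 and 73.3 in WT cells.

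Primary granule transcripts exceeded the background mark on all 7 arrays. Mpo, whose product makes hypochlorous acid from hydrogen peroxide, had intensities of 1127, 3424 and 2284 in Ahr-KO cells, against 186, 3284, 1217 and 1509 in WT cells. Elane, the elastase of neutrophils, had 265, 1388 and 545 in Ahr-KO cells, against 46.0, 697, 592 and 342 in WT cells. In both genes Ahr-KO replicate 2 was highest and WT replicate 1 lowest, and the genotypes overlapped.

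Prtn3, whose product is a serine protease closely related to elastase, had intensities of 882, 2286 and 1383 in Ahr-KO cells, against 341, 1122, 391 and 633 in WT cells. Ctsg, a chymotrypsin-like protease, had 557, 1908 and 1518 in Ahr-KO cells, against 157, 1261, 674 and 412 in WT cells. Again Ahr-KO replicate 2 was highest and WT replicate 1 lowest. For Prtn3, only WT replicate 2 reached into the range of the Ahr-KO arrays. The highest array exceeded the lowest 18.4-fold for Mpo, 30.2-fold for Elane, 6.70-fold for Prtn3 and 12.2-fold for Ctsg. The lowest Elane value, 46.0 on WT replicate 1, was close to that array's mark of 39.1.

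Of the later genes of the specific granules, Camp, Ngp and Lcn2 were more uneven on the log2 scale than any primary gene. Their wider ranges come in part from values below the background mark. Ltf was not more uneven, with a log2 range of 4.66 against 4.88 for Elane. Camp encodes the cathelicidin precursor of an antimicrobial peptide. Its intensities were 60.3, 55.4 and 1.78 in Ahr-KO cells, against 0.16, 590, 34.0 and 2.98 in WT cells. Ngp, the neutrophilic granule protein, had 180, 439 and 6.09 in Ahr-KO cells, against 0.04, 2837, 79.8 and 7.73 in WT cells. Both genes were highest on WT replicate 2 and below the background mark on Ahr-KO replicate 3, WT replicate 1 and WT replicate 4, and Camp also on WT replicate 3.

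Ltf encodes the iron-binding protein lactoferrin and had intensities of 38.8, 150 and 18.1 in Ahr-KO cells, against 7.25, 207, 12.2 and 10.2 in WT cells. Lcn2, whose product captures bacterial siderophores, had 193, 127 and 7.47 in Ahr-KO cells, against 3.36, 597, 29.8 and 11.5 in WT cells. Each exceeded the mark on Ahr-KO replicates 1 and 2 and on WT replicate 2, and on no other array. Differences among the dim arrays therefore carry no order.

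S100a8 and S100a9 were bright on most arrays. S100a8 had intensities of 1440, 3721 and 1771 in Ahr-KO cells, against 5.97, 4237, 2323 and 1298 in WT cells. Its partner S100a9 had 862, 2147 and 390 in Ahr-KO cells, against 47.0, 2685, 1309 and 573 in WT cells. S100a8 fell below the background mark on WT replicate 1 alone, and S100a9 stayed above it on all 7 arrays. The genotypes overlapped for each of the 6 later genes, with WT replicate 2 highest.

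On the linear scale 4 later genes had higher means in WT, each with its highest value on WT replicate 2. Ngp averaged 208 ± 218 in Ahr-KO against 731 ± 1404 in WT, and Camp 39.2 ± 32.5 in Ahr-KO against 157 ± 289 in WT (SD, n = 3 and 4). Lcn2 averaged 109 ± 94.0 in Ahr-KO against 160 ± 291 in WT, and S100a9 1133 ± 910 in Ahr-KO against 1153 ± 1145 in WT (SD, n = 3 and 4). For all 4 genes the SD in WT exceeded the difference between the means.

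**Figure D1:**
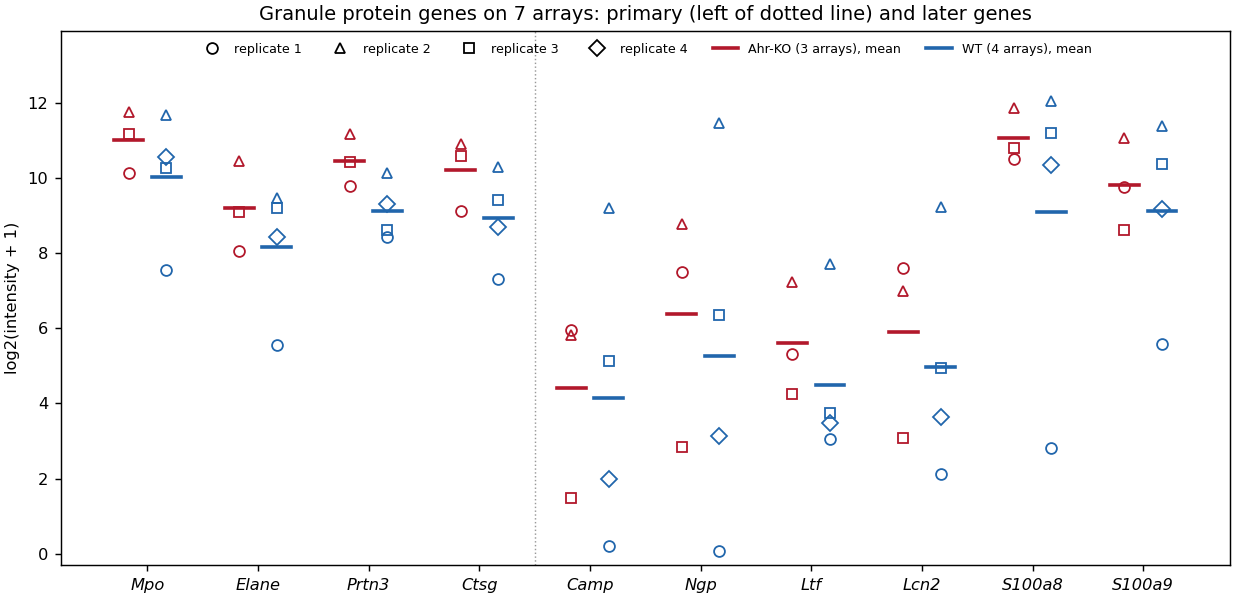
Level of each granule protein gene, log2(intensity + 1), on the 3 Ahr-KO arrays (red, left in each pair) and the 4 WT arrays (blue), with symbols for replicate numbers and bars for group means. Primary genes stand left of the dotted line. The primary genes, S100a8 and S100a9 are lowest on WT replicate 1, and the 6 later genes are highest on WT replicate 2. Values below the background mark (33.8 to 42.8 in intensity) have no order.

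The 2 groups of genes peaked on different arrays. All 4 primary genes were highest on Ahr-KO replicate 2 (3 of 4 after median centring of the arrays), and all 6 later genes were highest on WT replicate 2. The 4 primary genes, S100a8 and S100a9 were lowest on WT replicate 1. Camp, Ngp, Ltf and Lcn2 were below the mark there and on at least 2 other arrays, so no lowest array can be named for these 4. Over the annotated rows, 13.3% were highest on Ahr-KO replicate 2, 15.2% were highest on WT replicate 2 and 12.2% were lowest on WT replicate 1. In RNA from a sorted population, fewer cells of a type and less RNA per cell cannot be told apart.

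To compare arrays without setting one probe set's level against another's, each gene was centred on its own mean log2(intensity + 1) over the 7 arrays. The centred mean of the primary genes was -0.28, 1.51 and 0.76 in Ahr-KO cells, against -2.35, 0.84, -0.18 and -0.31 in WT cells. For the later genes it was 1.15, 2.02 and -1.44 in Ahr-KO cells, against -4.31, 3.56, 0.33 and -1.32 in WT cells. Ahr-KO replicate 2 and WT replicate 2 lay above zero in both groups of genes, and WT replicate 1 lay below zero in both. For the later genes the low values include intensities below the mark. Ahr-KO replicate 3 ranked 3 of 7 for the primary genes and 6 of 7 for the later genes.

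The later minus primary value, both centred, was 1.43, 0.51 and -2.20 in Ahr-KO cells, against -1.96, 2.72, 0.52 and -1.01 in WT cells. It averaged -0.09 ± 1.89 in Ahr-KO (SD, n = 3), against 0.07 ± 2.04 in WT (SD, n = 4). The genotype difference of -0.15 was thus far smaller than the spread within either genotype. Its sign rested on single arrays, with 0.90 without Ahr-KO replicate 3 and 0.73 without WT replicate 2, and values down to -0.91 (without Ahr-KO replicate 1). With limma's array weights it was 0.19.

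**Figure D2:**
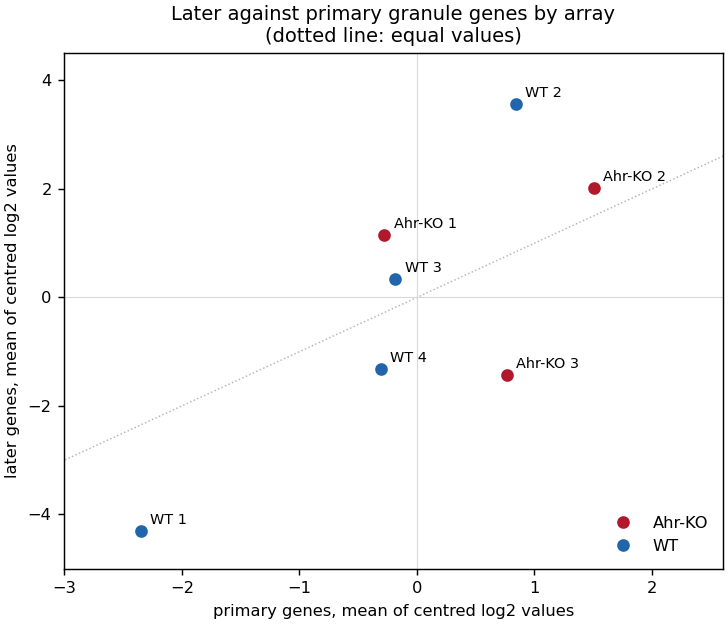
Mean centred log2 value of the 6 later genes (vertical axis) against that of the 4 primary genes (horizontal axis), 1 point per array, Ahr-KO in red and WT in blue. The dotted line marks equal values. WT replicate 2 and Ahr-KO replicate 1 lie furthest above it, at 2.72 and 1.43, and Ahr-KO replicate 3 and WT replicate 1 furthest below, at -2.20 and -1.96.

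Members of 1 granule class mostly ordered the arrays alike, and S100a8 stood between the classes. The 7 arrays form 21 pairs, and for each pair of genes the number of array pairs ordered the same way was counted. Array pairs with both arrays below the mark for either gene were left out, a choice made after seeing the data. Of the 15 array pairs left for each gene pair among Camp, Ngp, Ltf and Lcn2, 14 or 15 were ordered alike. These genes exceeded the mark on nearly the same arrays, so most of the 15 set an array above the mark against a dim array. The count thus mainly restates which arrays exceeded the mark, and no background was counted for it. Among the primary genes all 21 array pairs could be read, and the 6 gene pairs shared 16 to 19. The 16 pairs of a primary gene with Camp, Ngp, Ltf or Lcn2 had 15 to 18 such array pairs, of which 3 to 6 were ordered the other way.

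S100a8 and S100a9 ordered 19 of 21 array pairs alike. With the other later genes, 1 to 3 of 15 to 18 array pairs were ordered the other way. With the primary genes they shared 14 to 19 of 21, S100a8 and Elane sharing 19. As a background over all 21 array pairs, each member shared a median of 10 with the 11065 non-member genes at or above the median level, and the 95th percentile was 16 (15 for Ctsg). The lowest primary count, 16 for Elane and Prtn3, does not exceed that percentile. The genes of 1 array share its RNA and labelling, so these counts are not independent.

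**Figure D3:**
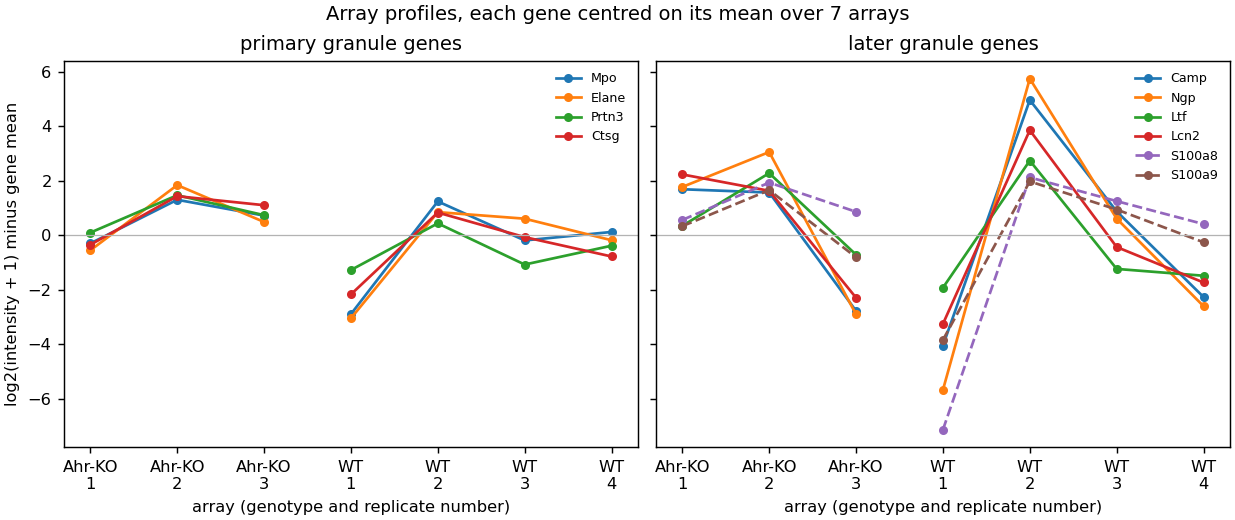
Centred log2(intensity + 1) of each primary gene (left panel) and each later gene (right panel) across the 3 Ahr-KO and 4 WT arrays, with S100a8 and S100a9 dashed. Lines join arrays of 1 genotype only to guide the eye, since replicates have no order. Later genes other than Ltf span a wider range than any primary gene, in part through values below the background mark.

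The members varied more between arrays of 1 genotype than most probe sets of like brightness. They were picked with uneven marker levels between these arrays known, so this is a description and not a test. The within-genotype SD of log2 values was 1.45 for Mpo, above 97.8% of the 232 rows within 0.5 log2 units of its mean level. Prtn3 was the steadiest member, with an SD of 0.74, above 75.2% of rows at its level. Ngp had the largest SD, 4.27, against a median of 1.15 among the 3950 rows at its level. For S100a8 the SD was 3.33, where the median at its level was 0.51. Both SDs include intensities below the mark, such as 0.04 for Ngp and 5.97 for S100a8 on WT replicate 1.

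Genotype differences exceeded the within-genotype SD for Prtn3 and Ctsg and fell short of it for the other 8 members. The mean log2 level of the primary genes was 10.2 ± 0.90 in Ahr-KO (SD, n = 3), against 9.05 ± 1.33 in WT (SD, n = 4), a difference of 1.16 that lies between the SDs of the genotypes. For the later genes it was 7.19 ± 1.80 in Ahr-KO (SD, n = 3), against 6.18 ± 3.28 in WT (SD, n = 4), a difference of 1.01 that is smaller than either SD. Without WT replicate 1 the primary difference was 0.55 and the later one -0.28. Without WT replicate 2 the later difference was 2.34. With values floored at the background mark it was 0.32, and with array weights 1.62.

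By gene, the Ahr-KO minus WT difference in log2(intensity + 1) was 1.34 ± 0.60 (SE) for Prtn3 and 1.27 ± 0.80 (SE) for Ctsg. Mpo differed by 1.0 ± 0.97 (SE) and Elane by 1.04 ± 1.04 (SE). Leaving out single arrays kept these 4 values above zero, between 0.17 (Elane without WT replicate 1) and 1.81 (Ctsg without Ahr-KO replicate 1). Without WT replicate 1, Mpo differed by 0.18, Ctsg by 0.73 and Prtn3 by 1.11.

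Among the later genes, S100a8 differed by 1.95 ± 2.06 (SE), Ngp by 1.12 ± 2.63 (SE) and Ltf by 1.11 ± 1.24 (SE). Lcn2 differed by 0.91 ± 1.77 (SE), S100a9 by 0.69 ± 1.34 (SE) and Camp by 0.27 ± 2.14 (SE). Without WT replicate 1, the differences were -0.14 for S100a8, -0.61 for Ngp, -0.04 for Lcn2, -0.49 for S100a9 and -1.03 for Camp. Ltf alone of the later genes kept its sign when any 1 array was left out, with a lowest value of 0.30 (without Ahr-KO replicate 2). With values floored at the background mark, however, Ltf differed by 0.04 and Ngp by 0.12, and with a pseudocount of 16 by 0.61 and 0.31.

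All 10 values were above zero with all arrays, except Camp with a pseudocount of 16 (-0.27) or a floor at the background mark (-0.60), as were 48.3% of all rows tested. In the fit over all 25335 annotated rows, limma called 0 members at an adjusted p under 0.05, and it called 0% of all rows. The lowest adjusted p of any row was 0.961. Without adjustment, 0 members and 4.21% of all rows had a limma p under 0.05, and 1.99% of all rows were past it and higher in Ahr-KO. The genotypes had separate ranges, with no overlap, for 0 members and for 5.74% of all rows. Since genotype differences were known when the genes were picked, nothing is read from these counts.

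**Figure D4:**
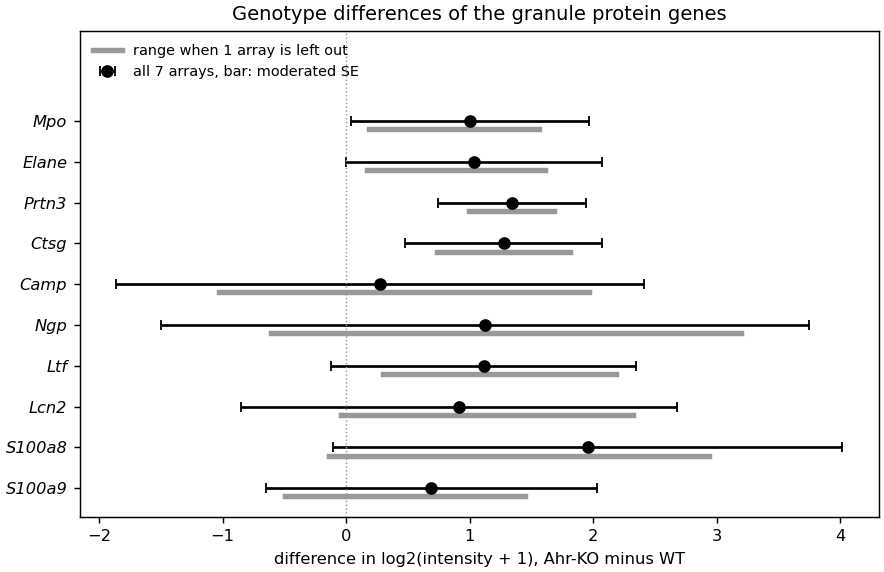
Ahr-KO minus WT difference in log2(intensity + 1) for each gene, with points and bars for the value and its moderated standard error over 7 arrays. Grey bars give the range when 1 array is left out. Grey bars of the primary genes and Ltf stay above zero, and those of Camp, Ngp, Lcn2, S100a8 and S100a9 cross it.

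Other genes of the same granules did not share 1 pattern. Of 12 other primary granule genes, 6 had higher and 6 lower values in Ahr-KO, none past the adjusted threshold, with a median difference of 0.0044 against -0.03 over all rows. Lyz2, which encodes lysozyme of myeloid cells, had intensities of 1123, 2951 and 2870 in Ahr-KO cells, against 1412, 2580, 1509 and 2351 in WT cells. Srgn, whose proteoglycan serglycin holds proteases in granules, had 1816, 2709 and 1290 in Ahr-KO cells, against 1926, 1828, 2110 and 2661 in WT cells. Both were highest on Ahr-KO replicate 2, like the primary members, but Lyz2 was lowest on Ahr-KO replicate 1 and Srgn on Ahr-KO replicate 3. By list, 6 of the 12 genes were highest on Ahr-KO replicate 2, against 13.3% of all rows. They include Bpi, which was above the mark on no array. The lysosomal genes Cd63 and Ctsd differed by -0.15 and -0.44.

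Of 15 other genes of later granules, 7 had higher and 8 lower values in Ahr-KO, again none past the threshold, with a median of -0.24. The list split between WT replicate 2, highest for 6 of its genes, and Ahr-KO replicate 2, highest for 5. Of those 6, Mmp8 (31.3) and Lyz1 (42.6) were below the mark of 42.8 on WT replicate 2, so their highest array has no meaning. Cyba, a subunit of the granule membrane oxidase, had intensities of 493, 466 and 175 in Ahr-KO cells, against 119, 661, 344 and 345 in WT cells, highest on WT replicate 2 like the later members. Pglyrp1, a peptidoglycan recognition protein, had 248, 1032 and 39.4 in Ahr-KO cells, against 11.3, 85.5, 270 and 295 in WT cells. Slpi, a protease inhibitor, had 17.9, 1788 and 5.91 in Ahr-KO cells, against 10.1, 498, 272 and 431 in WT cells. Mmp9, a gelatinase, differed by 0.28. Retnlg, named after its values were seen, had 180, 104 and 4.20 in Ahr-KO cells, against 10.8, 279, 53.5 and 6.95 in WT cells.

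Of 11 myeloid regulators, 7 had higher and 4 lower values in Ahr-KO, none past the threshold, with a median difference of 0.67 against -0.03 over all rows. At an unadjusted limma p under 0.05 there were 0 genes in this list and in both lists of other granule genes, against 4.21% of all rows. Spi1, which encodes PU.1, had intensities of 324, 909 and 1589 in Ahr-KO cells, against 298, 1335, 342 and 415 in WT cells. It was lowest on WT replicate 1, like the primary genes, but highest on Ahr-KO replicate 3. Cebpb differed by 1.0 ± 0.43 (SE), with 457, 716 and 429 in Ahr-KO cells, against 264, 263, 311 and 211 in WT cells. Its genotypes did not overlap, as was so for 5.74% of all rows. Myb differed by 0.30 and Cbfb, which encodes the beta subunit of core binding factor, by 1.14, and both overlapped between genotypes. Cebpe, which encodes C/EBP epsilon, was named after its values were seen. Its intensities were 35.85, 53.35 and 42.6 in Ahr-KO cells, against 63.8, 19.8, 58.4 and 61.3 in WT cells. It was highest on WT replicate 1 and below the mark on Ahr-KO replicate 1 and on WT replicate 2, where the later members peaked. Its part in the members' pattern was not tested.

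Genes whose array profiles lay nearest to the members were found among the same 11065 genes by the root-mean-square (RMS) difference of centred log2 values over 7 arrays. The 5 nearest to the primary profile were Fam117b, Zfp729a, Nkg7, Cd52 and Agpat2, at 0.27, 0.34, 0.36, 0.36 and 0.43. The primary members themselves lay 0.24 (Ctsg) to 0.57 (Prtn3) from their own mean profile. Cd52, a small glycoprotein of leukocyte surfaces, had intensities of 968, 3354 and 987 in Ahr-KO cells, against 144, 1494, 1015 and 687 in WT cells. Nkg7, a gene of cytotoxic granules, had 200, 770 and 538 in Ahr-KO cells, against 79.2, 394, 160 and 175 in WT cells.

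The later profile had more distant neighbours: Mrps31, Prkcd, Chst12, Rgs2 and Ubd, at 0.83, 0.91, 1.09, 1.15 and 1.16. The later members lay 0.75 (Lcn2) to 1.67 (S100a8) from their mean. Prkcd, which encodes protein kinase C delta, had 214, 343 and 12.4 in Ahr-KO cells, against 7.96, 540, 97.2 and 98.3 in WT cells. Prkcd and Chst12 were highest on WT replicate 2, whereas Mrps31 and Rgs2 were highest on Ahr-KO replicate 1 and Ubd on Ahr-KO replicate 2. These neighbours are a description of the same 7 arrays.

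Markers of other cells were compared over whole lists. Of 6 measured mature neutrophil markers, 2 exceeded the background on no array and 0 on all arrays. Their summed intensity ran from 94.2 to 107 in Ahr-KO and, by comparison, from 92.2 to 196 in WT, the highest being WT replicate 2. On that array 2 of the 6, Fpr2 and Trem1, exceeded the mark, against 0 or 1 elsewhere. The neutrophil surface gene Ly6g had 12.3, 9.61 and 15.9 in Ahr-KO cells, against 8.00, 11.0, 24.6 and 6.33 in WT cells, below the mark throughout. The chemokine receptor gene Cxcr2 exceeded it on WT replicate 4 alone. The part of mature neutrophil RNA in the later genes' pattern was not tested.

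Basophil and mast cell markers were uneven too, with 2 of 7 lowest on WT replicate 1. Their summed intensity ran from 615 to 2598 in Ahr-KO and, by comparison, from 112 to 2935 in WT, lowest on WT replicate 1 and highest on WT replicate 2. The sum on WT replicate 2 held 1670 from Cpa3 alone. Of the 7 markers, 2 exceeded the mark on no array. Mcpt8, a basophil protease of the same protease gene cluster as Ctsg, had 1176, 1691 and 348 in Ahr-KO cells, against 3.76, 773, 1352 and 664 in WT cells. Prss34, another basophil protease, had 216, 395 and 212 in Ahr-KO cells, against 6.10, 416, 71.6 and 132 in WT cells. The other 5 markers had lower values on other arrays, most of them below the mark. Cpa3, a mast cell carboxypeptidase, had 93.4, 36.2 and 16.6 in Ahr-KO cells, against 25.6, 1670.0, 15.5 and 95.3 in WT cells. Fcer1a, a subunit gene of the high-affinity IgE receptor, had 103.9, 381 and 6.17 in Ahr-KO cells, against 45.7, 37.4, 38.6 and 40.9 in WT cells. Hdc, named after its values were seen, was listed at 0 on Ahr-KO replicate 3. The part of these cells in the members' pattern was not tested.

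The other marker lists were mixed, and many of their genes were below the mark on some arrays. Of the monocyte and macrophage markers, 2 were higher and 7 lower in Ahr-KO, with a median of -0.28. Monocyte and macrophage markers (9 measured, 3 above the mark on no array) summed to 377 to 1948 in Ahr-KO, against 361 to 868 in WT. Among them Ccr2 had 143, 1038 and 282 in Ahr-KO cells, against 8.21, 247, 122 and 99.7 in WT cells, a difference of 2.26, while Cd68 differed by -0.90, Cx3cr1 by -0.28 and C1qa by -0.11. Dendritic markers (5 measured, 1 above on no array) summed to 230 to 545 in Ahr-KO, against 543 to 947 in WT. HSC markers (10 measured, 0 above on no array) summed to 1924 to 2858 in Ahr-KO, against 2686 to 7007 in WT. By sign 3 were higher and 7 lower in Ahr-KO, with a median of -0.65. The highest sum, on WT replicate 3, held 3932 from Gata2 alone, which had 749, 233 and 477 on the other WT arrays. On WT replicate 1 the HSC markers summed to 3294, and on WT replicate 2, where the later granule genes peaked, to 2686, the lowest WT value.

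Erythroid markers (5 measured) summed to 119 to 989 in Ahr-KO, against 231 to 576 in WT. Megakaryocyte markers (6 measured) summed to 1066 to 2383 in Ahr-KO, against 943 to 2613 in WT. B cell markers (7 measured, 4 above the mark on no array) summed to 138 to 195 in Ahr-KO, against 160 to 296 in WT. T and NK cell markers (9 measured, 5 above on no array) summed to 429 to 1119 in Ahr-KO, against 236 to 656 in WT. None of the measured genes in these marker lists passed the adjusted threshold of limma, and 1 gene each of the HSC, dendritic and megakaryocyte lists had an unadjusted p under 0.05. Their part in the members' pattern was not tested.

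**Figure D5:**
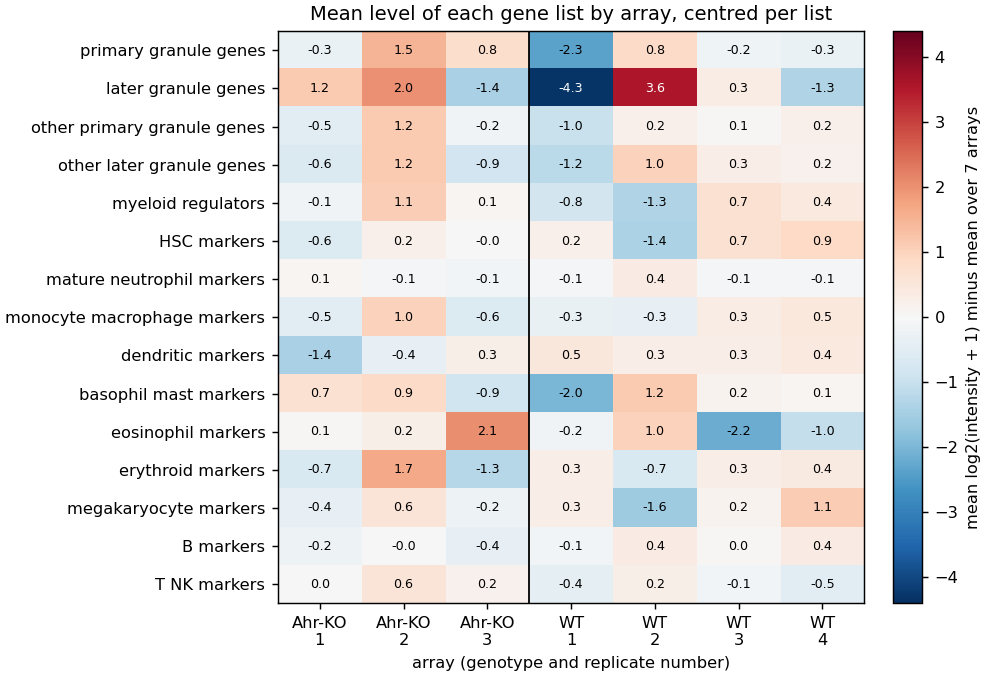
Mean log2(intensity + 1) of each gene list on the 3 Ahr-KO arrays (left of the line) and 4 WT arrays, centred on the list's mean over 7 arrays, with the value written in each cell. Later granule genes range from -4.3 on WT replicate 1 to 3.6 on WT replicate 2, a wider span than any other list shown and partly below the background mark, while mature neutrophil markers stay within 0.4 of zero.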

How the data were processed

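Biotinylated cDNA of 3 Ahr-KO and 4 WT samples was hybridised to Affymetrix arrays, 1 array per sample. The deposited table holds 1 linear intensity per probe set and array. The submitters' processing notes list Affymetrix Expression Console. How it summarized, background-corrected and normalized the probes was not known here. Of 41155 rows, the platform annotation listed 25335, 23521 with 1 gene symbol and 1814 with several, and the other 15820 were unnamed here. By Entrez ID, 23328 of those with 1 symbol were found in RefSeq's GRCm38.p6 table, the source of all coordinates; the build behind the array design was not given.

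Intensities were transformed as log2(intensity + 1), which understates fold changes of dim genes. Genotype was fitted with limma 3.58.1 (R 4.3.3; lmFit, eBayes) on all 25335 annotated rows without a filter, with two-sided p-values adjusted by Benjamini-Hochberg and standard errors moderated across rows. The procedure was tested on simulated data. Precision is limited by the number of arrays. The members, gene lists, motifs and background mark were chosen with earlier results of these data known. Besides all members, the naming rule took the 4 brightest measured genes of each list and the 5 genes nearest to each mean profile (of at least median level, predicted genes left out), each gene by its row of highest mean. Settings also tried were each array left out in turn, the replicate block, quantile normalization, median centring, a pseudocount of 16, other row sets, array weights, another variance prior, and, added after seeing the data, a floor at the background mark, array weights for the group means, and order counts without array pairs below the mark.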

Additional observations from a re-analysis of the deposited data

Results flagged for a closer look

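Among the 4 WT arrays, 1 array stood apart from the other 3 for 4 of the 26 genes or list levels examined, by a gap that was a larger part of the range than Dixon's critical value for 4 samples. Chance gives such a gap in about 1 of 20 groups, and the values share the same arrays.

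Ltf stood apart on WT replicate 2 (207 against 7.25, 12.2 and 10.2), with a gap of 0.853 of the range in log2 values. Its other 3 values were below the background mark, and the gene was picked with uneven marker levels between arrays known, so this is a description and not a test. The mean log2 level of mature neutrophil markers stood apart on the same array (4.29 against 3.85, 3.84 and 3.83), with a ratio of 0.963. That mean includes Fpr2, at 93.66 there and above the mark on no other array. Trem1 (53.55) also exceeded the mark there, whereas Cxcr2, Ly6g, Mmp25 and Il1r2 were below it. The gap is thus not a rise shared by the whole list. Other primary granule genes stood apart on WT replicate 1 (6.57 against 7.77, 7.63 and 7.77), with a ratio of 0.878. That mean includes Bpi, which was above the mark on no array and stood at 0.12 there. Erythroid markers stood apart on WT replicate 2 (4.44 against 5.38, 5.38 and 5.48), with a ratio of 0.899. That mean includes Epor, at 0.02 there against 70.2, 20.9 and 23.0 on the other WT arrays. By summed intensity, 576, WT replicate 2 was instead the highest WT array for erythroid markers. The causes of these gaps were not tested.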

How the results depend on the processing

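No member was called at an adjusted p under 0.05 under any of the 16 alternatives run, and no gene of the other lists was. Over all rows, limma called 0 in each of them except with values floored at the background mark, an alternative added after seeing the data. That fit called 2 rows, of Cdca5 and the predicted gene Gm10778, neither a member. At unadjusted p under 0.05 there were 1067 rows, against 1781 when all rows of the table were tested and 572 when dim rows were left out, as more or fewer rows were tested. Camp did not pass that filter on dim rows, and the other 9 members did.

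Leaving out single arrays gave a primary difference of 0.55 to 1.63, a later difference of -0.28 to 2.34 and a later minus primary difference of -0.91 to 0.90. Equal replicate numbers did not pair the arrays, since deviations of same-numbered arrays correlated at 0.02, -0.06 and 0.01. With the replicate block these differences were 1.23, 0.71 and -0.51, and 0 members were called. The block left out WT replicate 4, which has no partner. With array weights, added for these means after seeing the data, they were 1.43, 1.62 and 0.19. The primary difference was 1.11 to 1.22 under quantile normalization, median centring, the pseudocount of 16 and the floor, while the later one was 0.55 with a pseudocount of 16 and 0.32 with the floor. The floor alters only values below the mark, and a larger pseudocount shrinks log2 differences most at low values. No primary gene had a value below the mark, whereas every later gene except S100a9 did. Camp also turned below zero with the block (-0.44), the pseudocount of 16 (-0.27) and the floor (-0.60). Of 159 member values under alternatives, 12 changed sign and 0 moved by more than 1 within-genotype SD. After median centring, 3 of 4 primary genes were highest on Ahr-KO replicate 2. The 6 later genes were highest on WT replicate 2 under quantile normalization, median centring and the pseudocount of 16.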

Other observations

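Granule genes of the eosinophil lineage ranked the arrays in another order than the neutrophil granule genes. Prg2, which encodes the eosinophil major basic protein, had intensities of 2063, 2637 and 2982 in Ahr-KO cells, against 1181, 3758, 177 and 832 in WT cells. Epx, the eosinophil peroxidase, had 282, 103 and 767 in Ahr-KO cells, against 123, 421, 10.7 and 39.0 in WT cells. Prg3, a homologue of Prg2, had 95.7, 357 and 4859 in Ahr-KO cells, against 36.7, 125, 1.49 and 14.0 in WT cells. Prg2 and Epx were lowest on WT replicate 3, where Mpo stood at 1217, and not on WT replicate 1, where Mpo, Elane, Prtn3, Ctsg, S100a8 and S100a9 were lowest. Ahr-KO replicate 3, on which Camp, Ngp, Ltf and Lcn2 were below the background mark, was highest for Epx and Prg3. Prg2, however, was highest on WT replicate 2, like the later members. Of the 5 measured eosinophil markers, 3 had higher and 2 lower values in Ahr-KO, with a median difference of 1.49 against -0.03 over all rows. None was past limma's adjusted threshold, and 1 had an unadjusted limma p under 0.05. Their summed intensity ran from 2584 to 8788 in Ahr-KO and, by comparison, from 482 to 4579 in WT.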
